A study of Homo sapiens with 6 samples.

Results

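Cytosolic ribosomal protein genes were followed across 3 human cell lines in 6 deposited RNA-seq libraries. The members were the gene names made of RPL or RPS and a number, with at most a trailing A, X or L and 1 further digit, together with RPLP0, RPLP1, RPLP2 and RPSA. This rule took 85 of the 23340 gene names kept, 52 of the large subunit and 33 of the small subunit. Of these, 77 name the ribosomal proteins themselves (here the main members), and 8 carry the symbol of a second gene copy derived from another member, such as RPL22L1. FAU, which encodes a ribosomal protein fused to a ubiquitin-like one, falls outside the rule. At least 10 normalised counts in at least 2 libraries were required for testing, which 80 members passed, 75 of them main members.

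The libraries come from total RNA, sequenced as 50-base read pairs, with 2 libraries per line at different labelled depth. HT-29, a colorectal adenocarcinoma line, had been given interferon-γ (IFN-γ) at 200 U/ml for 24 h, with 1 library labelled 25M reads and 1 labelled 50M. MDA-MB-436, a breast adenocarcinoma line, was untreated, with 1 library at each of the same depths. MCF10A, a non-tumorigenic breast epithelial line grown with EGF, hydrocortisone, cholera toxin, insulin and horse serum, was also untreated. Its libraries are titled 25M and 100M, while another label gives 25M and 50M. Each line is a separate model with its own genome, though MDA-MB-436 and MCF10A are both breast lines. A medium is named here only for MCF10A, so line, medium and treatment cannot be told apart in any comparison. The labels do not say whether the 2 libraries of a line stem from different cultures, and the spread behind each p-value may be a technical one. Counted reads were 18.4M and 50.2M in the HT-29-labelled libraries, 16.7M and 56.4M in the MDA-MB-436-labelled ones, and 18.3M and 69.5M in MCF10A.

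Line markers went against the labels. KRT20, an intestinal keratin, had 0 and 0.547 normalised counts in the HT-29-labelled libraries, against 29899.7 and 30879.7 in the MDA-MB-436-labelled ones. VIL1, the villin of intestinal microvilli, was listed at 0 in both HT-29-labelled libraries and at 2055 and 2198 in the MDA-MB-436-labelled ones. VIM, the mesenchymal intermediate filament vimentin, had 36599 and 35267 in the HT-29-labelled libraries and only 16.5 and 7.39 in the MDA-MB-436-labelled ones. The markers thus stand where the HT-29 and MDA-MB-436 labels would put them if exchanged. All 4 libraries are named below by the label they carry (HT-29-labelled, MDA-MB-436-labelled), and which of them received IFN-γ was not tested here. MCF10A carried the basal keratin KRT5 at 424101 and 416184, as its label says.

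Ribosomal proteins are made in the cytoplasm, imported into the nucleolus and assembled there with ribosomal RNA into a large and a small subunit. Growing cells need most of them in equal numbers, and their messages are among the most abundant of any cell. Most start with a C followed by a run of pyrimidines, the 5′ terminal oligopyrimidine (TOP) motif, through which mTORC1 and LARP1 control their translation. Some members have a second, intron-containing gene copy whose protein can take the place of the usual one. The mammalian genome also holds very many processed pseudogenes of these genes, which bear on how short reads are assigned to them.

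The start-site motif is shown for RPL13A, RPL18 and RPS3, among the members with the largest changes in both comparisons of the HT-29-labelled libraries. It is also shown for RPS14 and for 2 pairs of gene copies. RPS14 changed less than those genes in both of these comparisons, and more in the MDA-MB-436-labelled libraries against MCF10A. The 30 bases run from 15 before the RefSeq start to 14 after it (RefSeq promoters, GRCh38.p14), and capitals mark the C at the start base with its pyrimidine run where there is one.
RPL13A: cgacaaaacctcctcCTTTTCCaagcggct
RPL18: accccagcccgttctCTCTTTCCggacctg
RPS3: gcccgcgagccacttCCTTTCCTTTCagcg
RPS14: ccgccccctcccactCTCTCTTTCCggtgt
RPL22: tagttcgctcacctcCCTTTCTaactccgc
RPL22L1: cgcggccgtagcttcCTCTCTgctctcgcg
RPL26: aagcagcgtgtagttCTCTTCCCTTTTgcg
RPL26L1: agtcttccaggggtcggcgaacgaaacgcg
These windows lie at chr19:49487593-49487622 (plus strand), chr19:48619164-48619193 (minus), chr11:75399503-75399532 (plus), chr5:150449725-150449754 (minus), chr1:6199581-6199610 (minus), chr3:170870181-170870210 (minus), chr17:8383179-8383208 (minus) and chr5:172958714-172958743 (plus). RefSeq held a promoter for 67 of the 85 members. A C at the start base with a run of at least 5 pyrimidines from it (C or T, read on the gene's strand) was present in 43 of these 67, or 64.2%, against 4.07% of all promoters in the table. Among the main members it was 42 of 62, and among the derived copies 1 of 5, that of RPL22L1. RPL26L1 has no C at its start base in this table. A missing match says only that these letters are not at the annotated base.

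Ribosomal protein genes took a smaller share of all counted reads in both tumour lines than in MCF10A. The share was 3.71% and 3.67% in the HT-29-labelled libraries, 3.76% and 3.98% in the MDA-MB-436-labelled ones, and 5.50% and 5.41% in MCF10A. The means were 3.69% ± 0.031, 3.87% ± 0.149 and 5.45% ± 0.063 in that order (SD, n = 2 each), so that the HT-29-labelled share was 0.677 times and the MDA-MB-436-labelled share 0.710 times that of MCF10A. Both gaps were far wider than the spread between libraries. The share in the HT-29-labelled libraries was 0.954 times that of the MDA-MB-436-labelled libraries, a gap close to the spread of the MDA-MB-436-labelled libraries. An exact two-sided permutation test gave p = 0.333 for each of the 3 comparisons, the smallest p that 2 libraries against 2 allow. Shares are relative to all counted RNA of a library, so less ribosomal protein RNA per cell and more of other RNA cannot be told apart.

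The lower share was seen in both subunits. Large-subunit genes took 2.13% ± 0.017 of reads in HT-29-labelled libraries, 2.16% ± 0.083 in the MDA-MB-436-labelled ones and 3.06% ± 0.037 in MCF10A. Small-subunit genes took 1.56% ± 0.014, 1.71% ± 0.067 and 2.39% ± 0.025 of reads in the same order (SD, n = 2 each). Within the members, the large subunit held 57.6% and 57.7% of reads in the HT-29-labelled libraries, 55.7% in both MDA-MB-436-labelled ones and 56.2% in both MCF10A libraries. The balance between subunits thus moved by less than 2 percentage points across lines. The 100 most abundant other genes also took less of the reads outside MCF10A, 11.1% in HT-29-labelled libraries and 12.3% in the MDA-MB-436-labelled ones, against 16.3% in MCF10A. These genes were ranked by reads summed over all 6 libraries, of which the deeper MCF10A library had the most, at 69.5M. Their higher share in MCF10A is therefore partly built into the choice, as is the gap once they are left out. With those genes left out of the total, the ribosomal protein shares were 4.15%, 4.41% and 6.52% in that order. Nuclear genes for mitochondrial ribosomal proteins, 76 of which were counted, took 0.583% of reads in HT-29-labelled libraries, 0.429% in the MDA-MB-436-labelled ones and 0.649% in MCF10A.

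**Figure D1:**
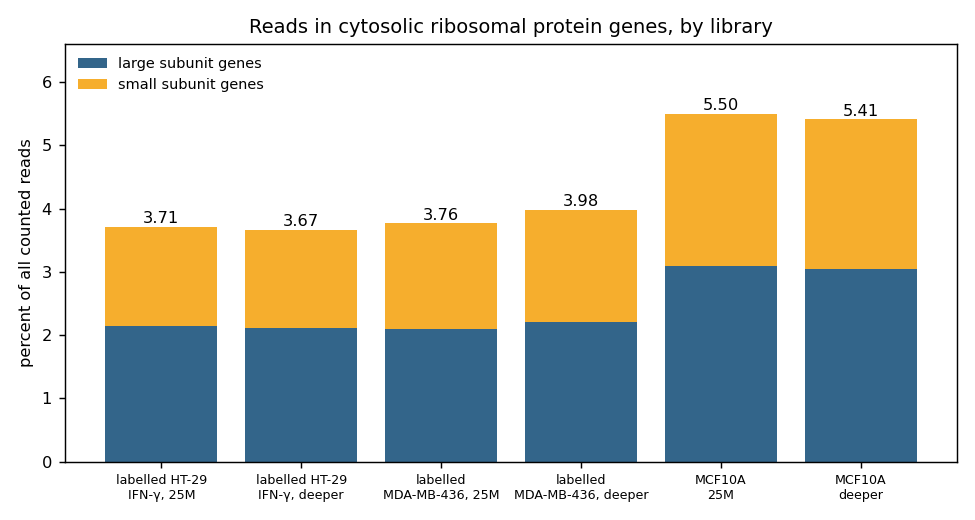
Percent of all counted reads that fell in large-subunit (blue) and small-subunit (yellow) ribosomal protein genes, 1 bar per library, with the sum above each bar. The 2 MCF10A bars stand at 5.50 and 5.41%, and the 4 others lie between 3.67 and 3.98%.

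RPL8, a large-subunit protein near the peptidyl transferase centre, had the highest level by normalised count and per kilobase of coding length in the mean over all 6 libraries. In the MDA-MB-436-labelled libraries its lead by normalised count was not constant. RPS6 had more in the 25M library (56007.5) and fewer in the deeper one (56901). Per kilobase, RPS19 and RPS6 were among the members with a higher mean level there. RPL8 had 103515 and 100549 normalised counts in the HT-29-labelled libraries, 54021 and 59204 in the MDA-MB-436-labelled ones and 134662 and 133724 in MCF10A. The MCF10A libraries were highest and the MDA-MB-436-labelled ones lowest, with no overlap. RPL8 alone made up 10.1% and 10.0% of all member reads in the HT-29-labelled libraries, 4.18% and 4.29% in the MDA-MB-436-labelled ones, and 7.17% and 7.26% in MCF10A. These shares of member reads do not depend on how libraries are scaled. RPS6, the S6 kinase substrate of the small subunit, RPS3, at the mRNA entry site, RPS4X, the X-linked form of RPS4, and RPL4 were the next highest by mean normalised count over the 6 libraries. RPS4X made up 5.17% and 5.01% of member reads in the HT-29-labelled libraries, 2.78% and 2.72% in the MDA-MB-436-labelled ones, and 2.76% and 2.82% in MCF10A. RPS3 ran the other way, with 1.87% and 1.81% of member reads in the HT-29-labelled libraries, 3.88% and 3.91% in the MDA-MB-436-labelled ones, and 4.21% and 4.18% in MCF10A.

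At the other end, RPL21 had at most 4.12 normalised counts. Most proteins of a ribosome are needed in equal numbers, so the measured counts of such members were set beside the uniqueness of their sequence. For each main member, its coding sequence (GENCODE 29, GRCh38) was divided into all windows of 50 bases, the read length, and the share of windows found without mismatch in a transcript of another gene name was computed. The 19 main members with under 20% shared windows had a median of 26348 normalised counts and none averaged under 1000. The 8 members with all windows shared (RPL17, RPL21, RPL39, RPL41, RPS10, RPS26, RPS27 and RPS28) had a median of 279, and 7 of them averaged under 1000. Per kilobase of coding length, the medians were 61396 and 794 for the same groups in that order. Across the 77 main members, the level per coding kilobase fell with the share of shared windows (Spearman's rho = -0.88, a description across genes that share libraries, read length and pseudogene content, with no test). Low values of RPS10, RPS26, RPS28, RPL17, RPL36A and RPL21 are therefore uncertain as levels, and the counting rule for reads that match several genes is not given in the sources used here. Across members, the share of shared windows was only weakly correlated with the fold changes (rho = 0.19 for HT-29-labelled libraries against MCF10A, 0.067 for the MDA-MB-436-labelled ones against MCF10A, 0.14 between the labelled tumour lines, 80 members each). Calls were nevertheless unequal. In the HT-29-labelled libraries against MCF10A, 24 of 41 members with under 50% shared windows were called lower (58.5%), against 13 of 39 with 50% or more (33.3%), beside 18.1% of all tested genes. Between the labelled tumour lines the counts were 13 of 41 (31.7%) and 5 of 39 (12.8%), beside 23.5% of all tested genes. In the MDA-MB-436-labelled libraries against MCF10A they were 4 of 41 (9.76%) and 7 of 39 (17.9%), beside 23.7%.

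**Figure D2:**
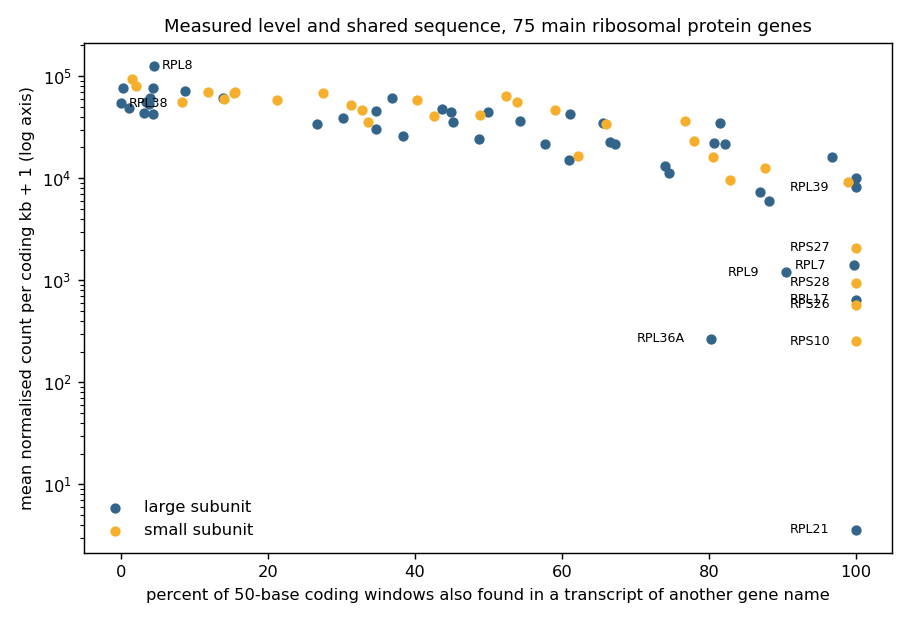
Mean normalised count per kilobase of coding sequence, plus 1, on a log axis against the percent of 50-base coding windows that also occur in a transcript of another gene name, for 75 of the main members (large subunit blue, small subunit yellow). Levels are lowest at the right, where every window is shared, with RPL21 at the bottom.

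Compared with MCF10A, ribosomal protein messages were lower in the HT-29-labelled libraries for most members. With limma and Benjamini-Hochberg adjustment over 15638 genes, 37 of 80 tested members were called lower and 2 higher (adjusted p under 0.05 and at least 2-fold). That is 46.25% lower and 2.5% higher, against a background of 18.1% lower and 28.4% higher among all tested genes. By adjusted p alone, 64 members were lower and 10 higher, against 39.2% lower and 46.3% higher of all genes. The median log2 fold change of the members was -0.91, against 0.13 for all tested genes. The count depends on scaling: with scaling by library size alone, which moves the median of all genes to 0.43, 26 members were called lower and 2 higher, against a background of 12.8% lower and 34.4% higher. With each library centred on its median ribosomal protein gene, 5 members were lower and 10 higher, against a background of 7.38% lower and 49.8% higher, so the calls that follow are split by that centring.

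RPL13A, a large-subunit protein also known as part of the IFN-γ-activated inhibitor of translation complex, had the deepest fall among the main members. It had 1611 and 1510.2 normalised counts in the HT-29-labelled libraries and 10904 and 10426 in MCF10A, which is -2.77 ± 0.043 in log2 fold change (SE; adjusted p = 1.4e-09, limma). All values in the HT-29-labelled libraries lay below all others, the MDA-MB-436-labelled ones included. Against the median ribosomal protein gene, RPL13A was still called lower, at -1.90 on the log2 scale. RPL18, another large-subunit protein, had 11150.2 and 10414 in the HT-29-labelled libraries and 47112 and 46365 in MCF10A, which is -2.12 ± 0.043 (adjusted p = 4.7e-09, limma). RPS3 had 19195 and 18226 in the HT-29-labelled libraries and 79013 and 77056 in MCF10A, or -2.06 ± 0.039 (adjusted p = 3.2e-09, limma). Neither gene's groups overlapped, and both stayed called after centring, at -1.24 and -1.19. RPS10 and RPL17, whose windows are all shared with other gene names, were also among the deepest falls, at -1.91 and -1.84. They rest on few counts, 51.0 and 57.5 for RPS10 and 191 and 181 for RPL17 in the HT-29-labelled libraries, against 213 and 199 and 654 and 683 in MCF10A. After centring, RPS10 stayed called at -1.04 and RPL17 did not, at -0.97.

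Acidic stalk proteins recruit translation factors to the large subunit. RPLP1 and RPLP2 were 2.83-fold and 3.12-fold lower in the HT-29-labelled libraries (log2 fold changes -1.50 and -1.64, adjusted p = 4.0e-08 and 3.1e-08, limma). Neither was called after centring, at -0.63 and -0.77. Their anchor RPLP0 had 25308 and 24355 normalised counts in the HT-29-labelled libraries and 41968 and 41801 in MCF10A, -0.75 on the log2 scale, which turned to 0.12 after centring. RPS19, the gene most often mutated in Diamond-Blackfan anaemia, had 14977 and 14548 in the HT-29-labelled libraries and 49582 and 48033 in MCF10A. RPS19 was thus 3.31-fold lower, and RPS6 3.06-fold lower, with no overlap of the groups (adjusted p = 4.5e-09 and 1.3e-09, limma). After centring they stood at -0.85 and -0.74, under 2-fold and no longer called. RPS14, the small-subunit gene tied to the 5q- syndrome, lay at the edge of the 2-fold rule, with a log2 fold change of -1.01, and was called neither with scaling by library size (-0.70) nor after centring (-0.14). RPL5 and RPL11, which form the 5S particle that binds MDM2, had log2 fold changes of -1.15 and -0.92, the first of which passed the 2-fold rule. The RPL5 call was lost with scaling by library size (-0.84) and after centring (-0.28).

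Few members were higher in the HT-29-labelled libraries. The calls were RPL39L, described with its pair below, and RPL36A, which had 147 and 125 normalised counts in the HT-29-labelled libraries against 69.3 and 60.4 in MCF10A (1.05 ± 0.15, adjusted p = 2.4e-04, limma). RPL36A rests on low counts and shares 80.3% of its windows. RPL36AL, a gene outside the rule with a symbol built on that of RPL36A, went the other way. It had means of 2191 normalised counts in the HT-29-labelled libraries and 5267 in MCF10A, and was called lower (-1.26). RPL26, known as a regulator of p53 translation, and RPL32 passed the adjusted p without reaching 2-fold. RPL26 had 20592 and 20594 in the HT-29-labelled libraries against 15552 and 15030.1 in MCF10A (0.43), and RPL32 had 25764 and 25839.5 against 20119 and 19904 (0.37). RPL10, at the P site of the large subunit, had a log2 fold change of 0.30. After centring, RPL26, RPL32 and RPL10 were all called higher, at 1.30, 1.24 and 1.17. RPS4X had 52976 and 50329 in the HT-29-labelled libraries and 51889 and 51943 in MCF10A, groups that overlap (-0.008, adjusted p = 0.82, limma). With scaling by library size its value was 0.30, and after centring 0.87. RPL8 had -0.40 on the deposited scale and 0.48 after centring, so its direction depends on the scaling.

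**Figure D3:**
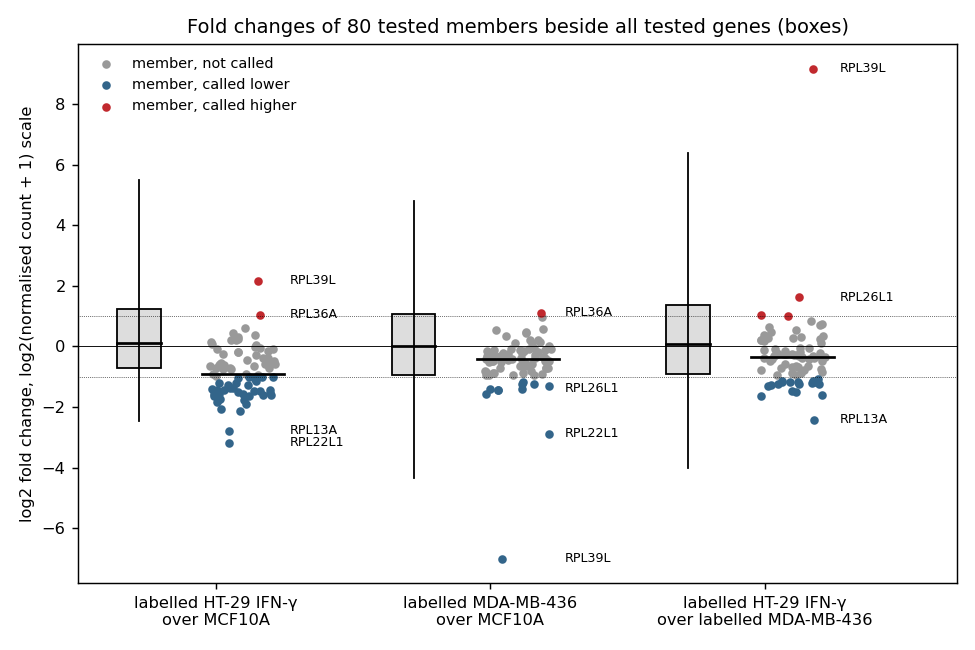
Log2 fold changes of the 80 tested members (points) beside all 15638 tested genes (boxes with quartiles, whiskers from the 5th to the 95th percentile) in 3 comparisons; blue and red points were called lower and higher, thick lines are member medians and dotted lines mark 2-fold. The member median lies at -0.91, -0.41 and -0.36 from left to right, and RPL39L stands furthest from it in the middle and right comparisons.

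Compared with MCF10A, most members were slightly lower in the MDA-MB-436-labelled libraries, and few reached 2-fold. Of 80 tested members, 11 were called lower and 1 higher by limma, or 13.75% and 1.25%, against a background of 23.7% lower and 25.6% higher. The share called lower was thus below that of all genes. By adjusted p alone 65 were lower and 9 higher, against 41.8% and 42.5% of all genes, with a median log2 fold change of -0.41. Centring on the median ribosomal protein gene left 7 lower and 2 higher, against a background of 18.3% lower and 32.1% higher. Scaling by library size alone gave 11 lower and 1 higher, against a background of 24% lower and 25.3% higher. This comparison uses the same MCF10A libraries as the comparison above.

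RPL17, RPS15 and RPL36 were among the deepest falls outside the gene copies. RPS15, which sits at the head of the small subunit, had 4558 and 4842 normalised counts in the MDA-MB-436-labelled libraries and 13014 and 12575 in MCF10A (-1.45 ± 0.035, adjusted p = 6.0e-09, limma). RPL36 had 11613 and 12259 in the MDA-MB-436-labelled libraries and 32388 and 31679 in MCF10A (-1.42 ± 0.030, adjusted p = 3.0e-09, limma). The groups were apart in both genes, and both stayed called after centring. RPL17, all of whose windows are shared, had a log2 fold change of -1.58. RPSA, a small-subunit protein also described as a laminin receptor, had 6505 and 6707 in the MDA-MB-436-labelled libraries and 16194 and 16353 in MCF10A (-1.30 ± 0.024, adjusted p = 1.7e-09, limma). RPL8 was 2.37-fold lower (adjusted p = 2.7e-08, limma). RPSA and RPL8 no longer reached 2-fold after centring, at -0.94 and -0.89.

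Of the members named for their fall in the HT-29-labelled libraries, several had smaller changes here, while RPL17 was called lower in both comparisons. RPL13A had 8139.9 and 8605 normalised counts in the MDA-MB-436-labelled libraries, 1.27-fold lower than MCF10A, a direction that was lost after centring (0.010). RPS19 had a log2 fold change of -0.22 that turned to 0.14 after centring, RPS6 one of -0.39, RPS3 one of -0.59 and RPL18 one of -0.48. RPLP1 had 26167 and 29379 in the MDA-MB-436-labelled libraries and 26099.9 and 25689 in MCF10A, and did not pass the test (adjusted p = 0.090, limma). RPLP2 and RPLP0 had log2 fold changes of -0.47 and -0.40. For RPL5 the value was -0.88, for RPL11 -0.064, which missed the adjusted p and changed sign after centring, and for RPS14 -0.92. RPS4X had a log2 fold change of -0.50.

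The single call in the other direction was RPL36A, with 144 and 139 normalised counts in the MDA-MB-436-labelled libraries and 69.3 and 60.4 in MCF10A (1.12 ± 0.15, adjusted p = 1.6e-04, limma). Here too RPL36AL went the other way, with a log2 fold change of -0.88, under 2-fold. RPS28, whose windows are all shared, had 286 and 328 against 165 and 149 (0.96). RPL10, RPL41, the smallest ribosomal protein, RPL37 and RPL22 also passed the adjusted p, with log2 fold changes of 0.58, 0.55, 0.47 and 0.44, each under 2-fold. Of the 75 main members tested, 8 were called lower and 1 higher.

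Between the HT-29-labelled libraries and the MDA-MB-436-labelled ones, members went both ways, RPL13A being lowest and RPL39L highest in the HT-29-labelled libraries. Of 80 tested members, 18 were called lower and 4 higher by limma, or 22.5% and 5%, against a background of 23.5% lower and 29.9% higher. The share called lower was near that of all genes. By adjusted p alone, 56 were lower and 20 higher, against 41.2% and 46.6% of all genes. The median log2 fold change was -0.36, and -0.03 with scaling by library size alone, which moves the median of all genes to 0.42 from 0.09. Under it 5 members were called lower and 7 higher, against a background of 18% lower and 35.9% higher. After centring, 3 were lower and 10 higher, against a background of 15.7% lower and 39.9% higher.

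Lower calls were led by RPL13A at -2.42 ± 0.043, RPL18 at -1.63 and RPLP1 at -1.60 (adjusted p = 1.4e-09, 1.0e-08 and 2.0e-08, limma). These 3 stayed called after centring. RPS19, RPS3 and RPL23 followed, at -1.50, -1.47 and -1.29. RPS6 was 2.34-fold lower and RPLP2 2.25-fold lower, both called on the deposited scale and neither after centring. RPL11 had a log2 fold change of -0.86, while the values of RPL5 (-0.27), RPLP0 (-0.35), RPL4 (-0.36) and RPS14 (-0.10) turned positive after centring.

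Higher calls were RPL39L, RPL26L1, RPL26 and RPL32. RPL26 had 20592 and 20594 normalised counts in the HT-29-labelled libraries and 9709 and 10179 in the MDA-MB-436-labelled ones (1.05 ± 0.030, adjusted p = 1.4e-08, limma). RPL32 had 25764 and 25839.5 in the HT-29-labelled libraries and 12457 and 13033 in the MDA-MB-436-labelled ones (1.02 ± 0.026, adjusted p = 8.3e-09, limma). Both genes were separated by about the same factor, 2.07-fold and 2.02-fold. RPL8 and RPSA were 1.80-fold and 1.66-fold higher in the HT-29-labelled libraries and RPS4X 1.41-fold higher, with adjusted p = 2.4e-07, 3.3e-08 and 1.5e-06 (limma), none of which reached 2-fold on the deposited scale. After centring, RPL8, RPSA and RPS4X all did, at 1.37, 1.25 and 1.01 on the log2 scale.

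Across the 3 lines, 59 of the 80 tested members had their highest mean normalised count in MCF10A, 13 in the MDA-MB-436-labelled libraries and 8 in the HT-29-labelled ones. By share of all reads the numbers were 55 in MCF10A, 8 in the MDA-MB-436-labelled libraries and 17 in the HT-29-labelled ones. Calls in the 3 comparisons were combined for each member. The most frequent pattern with any call, in 16 members, was lower in the HT-29-labelled libraries than in MCF10A and no other call. Next came 15 members called lower in the HT-29-labelled libraries against both others, among them RPL13A, RPL18, RPS3, RPS6, RPS19, RPLP1 and RPLP2. Another 6 were lower than MCF10A in both tumour lines (RPL17, RPL22L1 and RPS15 among them). No call was made in 32 members. These patterns hold for the deposited scale, and their shares among all tested genes were not computed. Between the labelled tumour lines, members called lower numbered 18 on that scale, 5 with scaling by library size and 3 after centring. Among all tested genes, 23.5%, 18% and 15.7% were called lower in the same order.

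**Figure D4:**
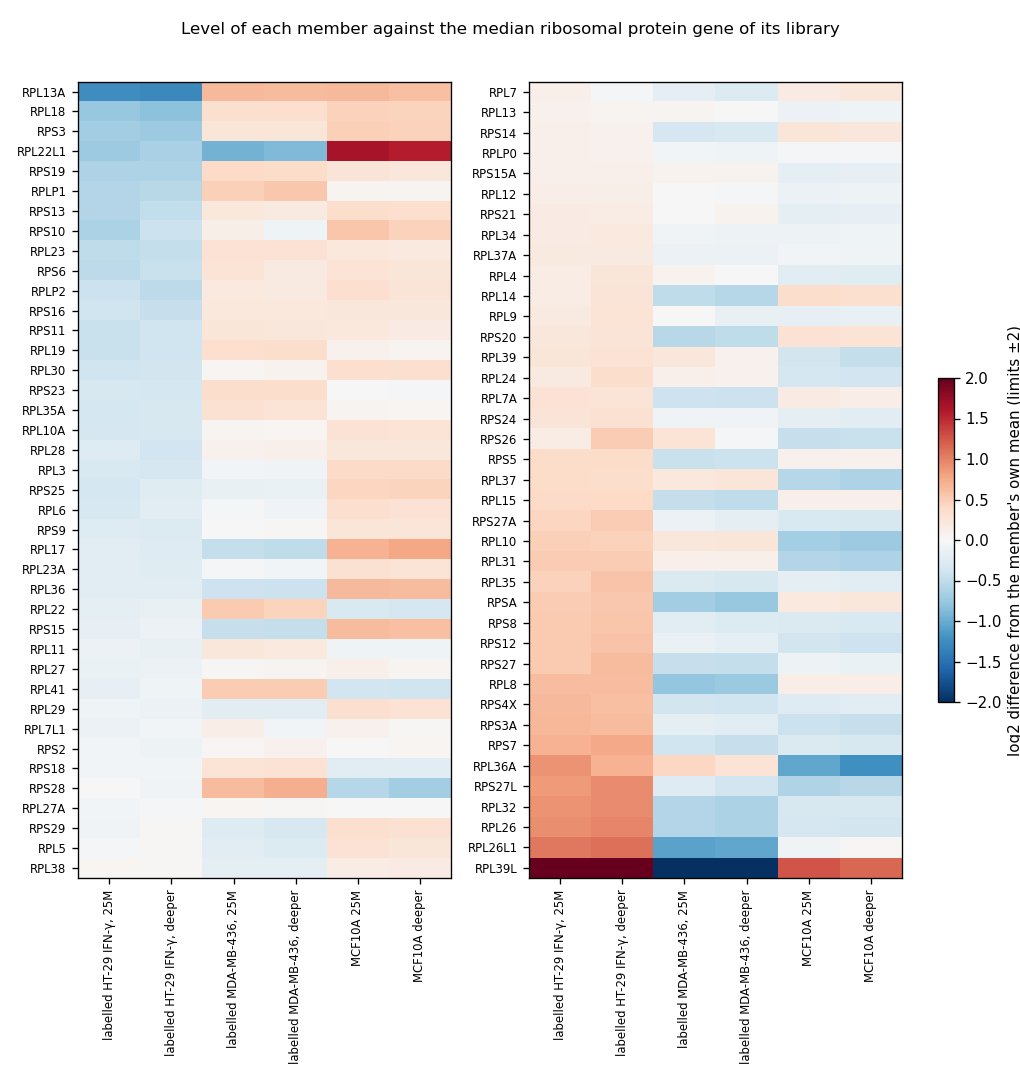
Levels of 79 tested members in the 6 libraries, each given as log2(normalised count + 1) minus the median main member of the same library and then minus the member's own mean, from blue (lower) to red (higher), limited at ±2. Members are ordered by their mean in the 2 HT-29-labelled libraries, from RPL13A (lowest) to RPL39L (highest), and the libraries of a line look alike.

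Pairs of gene copies were compared by the share of the copy in the reads of both genes, which needs no scaling between libraries. RPL22L1 and RPL22 encode interchangeable large-subunit proteins, and in mouse cells RPL22 is known to hold down RPL22L1. RPL22L1 took 17.1% and 17.7% of the pair's reads in the HT-29-labelled libraries, 9.89% and 10.8% in the MDA-MB-436-labelled ones, and 54.1% and 53.2% in MCF10A. The MCF10A libraries stood far above the others, with no overlap of the exact 95% binomial intervals, which cover counting error only (52.6 to 53.8% in the deeper MCF10A library and 16.9 to 18.5% in the deeper HT-29-labelled library). RPL22L1 itself had 803 and 828 normalised counts in the HT-29-labelled libraries, 943 and 1050.1 in the MDA-MB-436-labelled ones and 7588 and 7130.1 in MCF10A. It was 9.03-fold lower in the HT-29-labelled libraries than in MCF10A (adjusted p = 2.8e-09, limma) and 7.38-fold lower in the MDA-MB-436-labelled ones (adjusted p = 2.5e-09, limma). Both calls held after centring, at -2.30 and -2.53 on the log2 scale. Between the labelled tumour lines the value was -0.29, which turned to 0.23 after centring. RPL22 had 3878 and 3859.7 in the HT-29-labelled libraries, 8587 and 8709.5 in the MDA-MB-436-labelled ones and 6432 and 6276 in MCF10A. RPL22 was therefore highest in the MDA-MB-436-labelled libraries, where the share of RPL22L1 was lowest. RPL22 reads are part of the total of that share, so more of them lower it by arithmetic. On the deposited scale, both genes were lowest in the HT-29-labelled libraries. Their log2 fold changes went opposite ways in the MDA-MB-436-labelled libraries against MCF10A (0.44 for RPL22) and the same way in the HT-29-labelled ones (-0.72, which turned to 0.16 after centring). The coding sequences of the pair are 66.6% identical with a longest shared run of 17 bases, although RPL22 shares 96.7% of its own windows with other gene names and its level is uncertain.

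RPL39L, best known from testis, and RPL39, which lines the exit tunnel, are near-identical. Their coding sequences differ at 8 of 156 bases with a longest shared run of 44, shorter than a 50-base read. They are given here to show how far reads can tell them apart, with differing bases in capitals (GENCODE 29).
RPL39L: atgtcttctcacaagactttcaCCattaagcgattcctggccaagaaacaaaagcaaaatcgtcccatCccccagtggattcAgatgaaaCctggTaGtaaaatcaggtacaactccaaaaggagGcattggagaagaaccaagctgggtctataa
RPL39: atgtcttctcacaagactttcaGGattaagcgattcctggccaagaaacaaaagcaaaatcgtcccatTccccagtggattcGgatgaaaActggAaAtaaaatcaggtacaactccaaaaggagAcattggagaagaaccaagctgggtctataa
RPL39L had 475 and 1374 reads in the HT-29-labelled libraries, 0 and 1 in the MDA-MB-436-labelled ones, and 91 and 316 in MCF10A. Its share of the pair's reads was 39.4% and 40.4% in the HT-29-labelled libraries, 0% and 0.043% in the MDA-MB-436-labelled ones, and 11.6% and 11.4% in MCF10A. For the library with 0 reads, the limit that a count of 0 allows (3 reads) is 0.417% of the pair. The gene was thus at or near 0 in the MDA-MB-436-labelled libraries and largest in the HT-29-labelled ones. With the reads of each line summed and scaled, the ratio of HT-29-labelled libraries to MCF10A was 4.68 (95% counting interval 4.20 to 5.23). For MDA-MB-436-labelled libraries to MCF10A it was 0.00299, with an interval from 7.6e-05 to 0.0168. For HT-29-labelled libraries to the MDA-MB-436-labelled ones it was 1564, with an interval from 280.3 to 61796, the width set by the single read. All 3 differences were called by limma (adjusted p = 7.9e-05, 5.5e-08 and 1.2e-08), while the fitted size of those against the MDA-MB-436-labelled libraries depends on the pseudocount. RPL39 varied far less, with 1095 and 1108 normalised counts in the HT-29-labelled libraries, 1480.2 and 1447 in the MDA-MB-436-labelled ones and 1303 and 1205 in MCF10A. All windows of RPL39 are shared with other gene names, so its level and the shares of the pair are uncertain.

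RPL26L1, a copy of RPL26 that differs at 69 of 438 coding bases, took a small part of its pair. The share was 4.72% and 4.79% in the HT-29-labelled libraries, 3.18% and 3.32% in the MDA-MB-436-labelled ones, and 5.20% and 5.66% in MCF10A. RPL26L1 had 1020.1 and 1036 normalised counts in the HT-29-labelled libraries, 319 and 349.8 in the MDA-MB-436-labelled ones and 854 and 901 in MCF10A. It was 2.62-fold lower in the MDA-MB-436-labelled libraries than in MCF10A (adjusted p = 2.1e-07, limma) and 3.07-fold higher in the HT-29-labelled ones than in the MDA-MB-436-labelled ones (adjusted p = 8.5e-08, limma). Both members of the pair were therefore lowest in the MDA-MB-436-labelled libraries.

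RPS27L, a p53-inducible copy of RPS27, took 85.0% and 84.9% of its pair in the HT-29-labelled libraries, 83.9% and 83.0% in the MDA-MB-436-labelled ones, and 76.3% and 77.2% in MCF10A. It had 3116 and 3245 normalised counts in the HT-29-labelled libraries, 1964 and 1963 in the MDA-MB-436-labelled ones and 2079 and 2121 in MCF10A. RPS27L was 1.51-fold higher in the HT-29-labelled libraries than in MCF10A and 1.62-fold higher than in the MDA-MB-436-labelled ones (adjusted p = 9.5e-07 and 3.1e-07, limma). RPS27 shares all of its windows with other gene names and RPS27L none, and RPS27 had no more than 644 normalised counts, so that the excess of RPS27L over RPS27 is uncertain. RPL7L1 took 54.6% and 57.8% of the summed reads of RPL7L1 and RPL7 in the HT-29-labelled libraries, 63.9% and 61.8% in the MDA-MB-436-labelled ones, and 57.0% and 54.8% in MCF10A. The coding sequences of this pair are only 55.6% identical, with a longest shared run of 11 bases. RPL7 shares 99.7% of its windows, and the shares in HT-29-labelled libraries and MCF10A overlapped. RPL3L, known from striated muscle, had at most 2 reads in any library, against 15426 or more for RPL3. RPL10L, known from testis, had at most 1 read in any library. Exact permutation tests of the pair shares gave p = 0.333 at best, the smallest p possible with 2 libraries against 2.

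**Figure D5:**
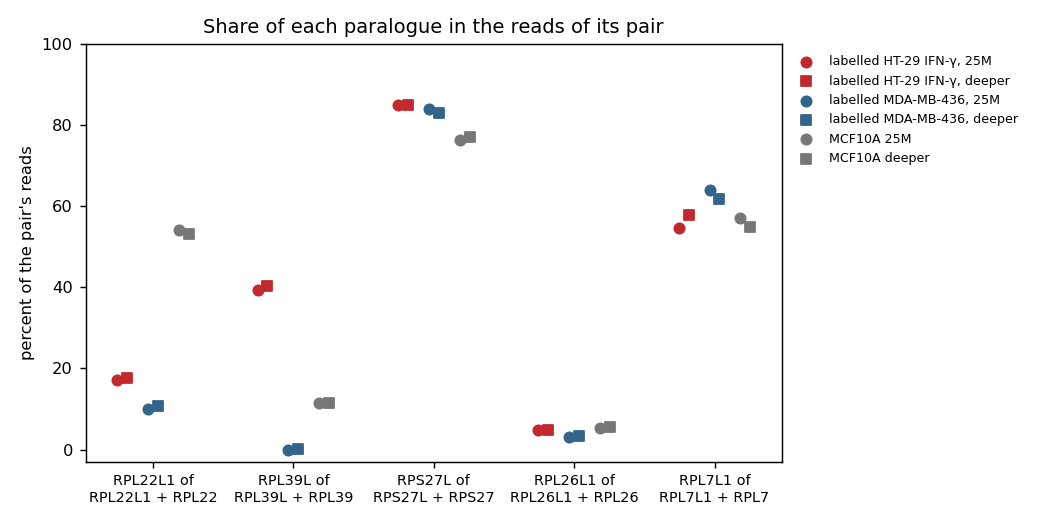
Percent of the reads of a gene pair that fell in the derived copy, for 5 pairs, with circles for the 25M library and squares for the deeper library of each line (red, labelled HT-29; blue, labelled MDA-MB-436; grey, MCF10A). RPL22L1 stands above 53% in MCF10A against 17.7% or less elsewhere, and RPL39L between 39.4 and 40.4% in HT-29-labelled libraries against 11.6% or less elsewhere.

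Fold changes were also read against the place of members in the genome, for which only chromosome and gene order from RefSeq were used. On chromosome 19, 10 of 12 tested members were called lower in the HT-29-labelled libraries than in MCF10A, with a median log2 fold change of -1.50, against -0.18 for 1060 other tested genes of that chromosome. The share called lower was 46.25% of all tested members and 18.1% of all tested genes. Chromosome 19 was not alone in this comparison. On chromosome 17, 5 of 6 members were called lower (median -1.22), and on chromosome 11, 4 of 5 (median -1.64). On chromosome 2, 0 of 4 were. In the MDA-MB-436-labelled libraries against MCF10A, 3 of the 12 members on chromosome 19 were called lower, beside 23.7% of all genes. Among them were RPS15 and RPL36, the first and the second in gene order. On chromosome 3, 4 of 9 members were called lower in the MDA-MB-436-labelled libraries than in MCF10A (RPSA, RPL14, RPL22L1 and RPL39L), beside 23.7% of all tested genes. Their median was -0.94, against -0.081 for 830 other genes of that chromosome. On chromosome 8, the 4 members had a median of -0.98 in the HT-29-labelled libraries against MCF10A, beside -0.077 for 515 other genes of that chromosome. In the MDA-MB-436-labelled libraries against MCF10A, these medians were -0.98 and -0.91, and between the labelled tumour lines 0.0075 and 0.81. The 4 members on the X chromosome, RPS4X, RPL36A, RPL39 and RPL10, had a median of 0.15 in the HT-29-labelled libraries against MCF10A and 0.40 in the MDA-MB-436-labelled ones against MCF10A. The 507 other X-linked genes had medians of 0.87 and 0.22 in the same comparisons. These chromosomes were chosen after their values were seen. Over the 80 tested members, the log2 fold change was set beside the median of up to 20 nearest tested genes that are not members. Pearson's r was 0.56 and Spearman's rho 0.64 for the HT-29-labelled libraries against MCF10A. For the MDA-MB-436-labelled libraries against MCF10A, r was -0.05 and rho 0.27, and between the labelled tumour lines r was 0.30 and rho 0.68. These are descriptions across genes of the same libraries, in which neighbouring members can share neighbours.

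Genes linked to the ribosome outside the symbol rule were read by lists, in the order HT-29-labelled libraries against MCF10A, MDA-MB-436-labelled against MCF10A and HT-29-labelled against MDA-MB-436-labelled. Among all tested genes, 18.1% were called lower and 28.4% higher, then 23.7% and 25.6%, then 23.5% and 29.9%, with medians of 0.13, 0 and 0.09. Of 16 translation factors and partners with TOP messages, 9 were called lower and 0 higher, then 5 lower and 1 higher, then 3 lower and 1 higher (median log2 fold changes -1.19, -0.72 and -0.54). The shares called lower were thus 56.25%, 31.25% and 18.75%, the last of them under that of all genes. PABPC1, the poly(A)-binding protein, had 24604 ± 96.5 normalised counts in the HT-29-labelled libraries and 142854 ± 1334 in MCF10A. EEF2, the translocation factor, had 55711 ± 1591 normalised counts in the HT-29-labelled libraries and 193620.0 ± 1605 in MCF10A, and EIF3E, an initiation factor subunit, 4987 ± 186 normalised counts in the HT-29-labelled libraries and 24934 ± 184 in MCF10A. All 3 were called lower (log2 fold changes -2.54, -1.80 and -2.32). EIF4A2, an initiation helicase, was higher in the MDA-MB-436-labelled libraries than in MCF10A, by 1.20 on the log2 scale. RPL36AL, a ribosome-linked gene outside the rule, had 2191 ± 66.3 normalised counts in the HT-29-labelled libraries and 5267 ± 94.0 in MCF10A.

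Of 30 ribosome assembly factors, 9 were lower and 0 higher, then 7 lower and 0 higher, then 5 lower and 3 higher (medians -0.86, -0.19 and -0.17). The shares called lower were 30%, 23.3% and 16.7%, of which the second was near and the third under that of all genes. FBL, the methyltransferase of box C/D particles, had 3471 ± 267 normalised counts in the HT-29-labelled libraries and 18144 ± 406 in MCF10A, and NPM1, a nucleolar chaperone, had 15814 ± 212 normalised counts in the MDA-MB-436-labelled libraries and 51764 ± 331 in MCF10A. BOP1, of the PeBoW complex of large-subunit assembly, stood at a log2 fold change of -2.06 in the MDA-MB-436-labelled libraries against MCF10A. Of 14 RNA polymerase I genes, 3 were lower and 0 higher, then 3 lower and 1 higher, then 4 lower and 2 higher, or 21.4%, 21.4% and 28.6% lower, near the shares of all genes. RRN3, the initiation factor that mTOR controls, was the higher gene in the MDA-MB-436-labelled libraries against MCF10A (1.21). Of 16 regulators, 4 were lower and 2 higher, then 1 lower and 2 higher, then 4 lower and 1 higher, or 25.0%, 6.25% and 25.0% lower. MYC, which drives ribosome production, had 4284 ± 24.8 normalised counts in the HT-29-labelled libraries and 24428 ± 36.8 in MCF10A, -2.51 on the log2 scale, and -1.56 in HT-29-labelled libraries against the MDA-MB-436-labelled ones. MXD1, a MYC antagonist, had 4561 ± 107 normalised counts in the MDA-MB-436-labelled libraries and 400.3 ± 17.9 in MCF10A (3.51), and LARP1, which binds TOP messages, was lower in HT-29-labelled libraries than in the MDA-MB-436-labelled ones (-1.27). Of 76 mitochondrial ribosomal protein genes, 15 were lower and 0 higher, then 22 lower and 0 higher, then 7 lower and 8 higher (medians -0.47, -0.63 and 0.09). The shares called lower were 19.7%, 28.9% and 9.21%, the first of them near that of all genes.

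The depth of the libraries, which differs within each line, gave no calls among the members. With the deeper library of each line set against its 25M library and line as a block, limma called 0 of 80 members and 0 of 15638 genes, with 0 members at an unadjusted p under 0.05. The edgeR quasi-likelihood test called 0 members and 1 of all genes, with 3 members at an unadjusted p under 0.05. By edgeR, 75 of the 80 members lay above 0 in the deeper libraries, with a median log2 difference of 0.035, and by limma 56 of 80. Log2 differences of the members between the depths ran from -0.16 to 0.21, with a median of 0.013 by limma. Members differed between the libraries of a line by more than counting noise. The median chi-square statistic per member was 3.40 in the HT-29-labelled pair, 8.79 in the MDA-MB-436-labelled pair and 2.07 in MCF10A. Over all genes it was 0.730, 0.686 and 0.553, and 0.455 is due from counting alone. The statistic grows with read number, so it does not compare the spread of members, which hold many reads, with that of all genes. The median absolute log2 difference of members was 0.047, 0.074 and 0.032 in the same order.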

How the data were processed

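The authors deposited 1 table per library with a normalised read count and an RPKM value per gene name, per the file headers. The submitters' processing notes name FastQC, STAR 2.2.0, HTSeq and hg19, without roles or settings. The deposited normalised signal was whole reads times 1 factor per library (100% of values whole within 0.001), so reads were recovered by division. In the deposited RPKM column, 1598 of 23368 rows were 0 on one side and not on the other against the normalised count (0 of them members), so no RPKM value was used. The 28 rows with date-like names, 4 of them repeated, were left out, which gave 23340 names. log2(normalised count + 1) was fitted with limma 3.58.1 (trended, robust prior; R 4.3.3) over all 6 libraries with line as the only term (3 residual degrees of freedom), after a filter of 10 normalised counts in 2 libraries. A call needs a Benjamini-Hochberg adjusted p under 0.05 and a 2-fold change. Alternatives were library-size, TMM and ribosomal-median scaling, edgeR 4.0.16 and DESeq2 1.42.0 on recovered reads, other pseudocounts, filters and priors, each library left out, MCF10A summed, and a block by read depth. Fits were tested on simulated data. Shares use recovered reads. Replicate libraries of a line differed by more than counting noise and were kept as 2. The named genes were the 7 pairs of gene copies, the 6 largest changes each way per comparison, the 5 highest and 5 lowest main members, 11 members with known roles, and up to 3 called genes per list and direction. Some genes that meet this rule are not reported here by name or drawn singly, though all counts and medians include them. Genes named for their call pattern or chromosome were chosen after their values were seen. Members, lists and tests were chosen with earlier results of these data known. RefSeq names matched 96.2% of tested genes.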

Additional observations from a re-analysis of the deposited data

How the results depend on the processing

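Counts of called members moved most with scaling. In the libraries labelled HT-29 against MCF10A, 39 members were called on the deposited scale and 15 when each library was centred on its median ribosomal protein gene. Among all tested genes, lower calls went from 18.1% to 7.38% and higher calls from 28.4% to 49.8%. In the libraries labelled HT-29 against those labelled MDA-MB-436, 22 were called on the deposited scale, 13 after centring and 12 with scaling by library size alone. Of all tested genes, 23.5%, 15.7% and 18% were called lower in that order, and 29.9%, 39.9% and 35.9% higher. The share of lower calls among the members moved with the scaling, since 5 of the 15, 3 of the 13 and 5 of the 12 were lower. Centring brings the median main member to the same level in every library. Fewer lower calls and changes of sign after it are therefore partly built in. In the libraries labelled MDA-MB-436 against MCF10A, 12 were called on the deposited scale, 9 after centring and 17 with TMM. Of all tested genes, 23.7% were called lower and 25.6% higher on the deposited scale, and 18.3% and 32.1% after centring. The share of all genes called with TMM is not given here. Leaving out each library in turn gave 35 to 39, 22 to 22 and 12 to 13 calls in libraries labelled HT-29 against MCF10A, labelled HT-29 against labelled MDA-MB-436 and labelled MDA-MB-436 against MCF10A, where a lone library is assumed to vary like the others. With the replicate block by read depth, the counts were 39, 22 and 12. Libraries of like depth did not deviate together (correlations of -0.003, 0.007 and 0.028), so the numbers do not pair them. Shares were also computed without the 100 most abundant other genes in the total, a list weighted to the deeper MCF10A library. They were 4.15% in libraries labelled HT-29, 4.41% in those labelled MDA-MB-436 and 6.52% in MCF10A.

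After centring, 27, 28 and 23 of the 80 tested members changed sign in libraries labelled HT-29 against MCF10A, labelled HT-29 against labelled MDA-MB-436 and labelled MDA-MB-436 against MCF10A, and 9, 18 and 0 did so with library size alone. The values that follow cover only the members chosen by the naming rule, each of which kept its sign under the alternatives not named here. After centring, in libraries labelled HT-29 against MCF10A, RPL22 stood at 0.16, RPL39 at 0.69, RPL4 at 0.42, RPL8 at 0.48, RPLP0 at 0.12, RPS27 at 0.70, RPS28 at 0.60, RPS4X at 0.87 and RPSA at 0.31 on the log2 scale. With library size alone, RPL39 stood at 0.12, RPS27 at 0.14, RPS28 at 0.032 and RPS4X at 0.30. With a library labelled HT-29 left out, RPS4X stood between -0.045 and 0.029. In libraries labelled HT-29 against those labelled MDA-MB-436, centring gave RPL10 0.23, RPL22L1 0.23, RPL36A 0.45, RPL39 0.10, RPL4 0.15, RPL5 0.24, RPL7 0.27, RPLP0 0.16 and RPS14 0.42. Library size alone gave RPL10 0.047, RPL22L1 0.040, RPL36A 0.26, RPL5 0.053, RPL7 0.081 and RPS14 0.23, and RPL36A stood between -0.18 and 0.053 with a library labelled HT-29 left out. In libraries labelled MDA-MB-436 against MCF10A, centring gave RPL11 0.30, RPL13A 0.010, RPL4 0.27, RPS19 0.14 and RPS27L 0.26, and TMM gave RPLP1 -0.0013. RPL39L is limited by its read number in the libraries labelled MDA-MB-436, where 1 read was counted in all. The normalised counts of RPS10, RPS26, RPS28, RPL17 and RPL36A are low in every library, whatever its depth. Of their windows, 80.3% are shared with other gene names for RPL36A and all for the others.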
